A study of Mus musculus with 8 samples.

Results

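The regions described here are 1432 stretches of open chromatin in MIN6 cells that were at least 2000 bp wide with an empty vector and met exactly 1 open region after transfection with Klf4. They were found in 2 deposited peak lists, 1 for each plasmid, on chromosomes 1 to 19 and X. A region was taken from the empty vector list if its width reached 2000 bp and if a single Klf4 peak overlapped it by 1 bp or more. The 1432 regions are 1.43% of the 100049 empty vector peaks on these chromosomes and 5.19% of the length those peaks cover. The width with the empty vector and the number of Klf4 partners chose them, so these 2 quantities are given as descriptions without a test.

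MIN6 is a mouse insulinoma cell line that stands in for pancreatic beta cells, and its genotype is given as WT. Open chromatin was measured by ATAC-seq, in which a transposase cuts and tags accessible DNA. Cells were transfected for 48 hours with a lipid reagent, in 1 group with the pcDNA 3 Empty Vector and in the other with pGloMyc-Klf4. The labels count 4 biological replicates for each plasmid, 8 libraries in all, but each list holds 1 merged value per region. Every comparison below is therefore between 2 lists without replicates, so no spread between replicates is known, no test was possible and the read depth is unknown. The labels give the plasmids different names, so what Klf4 did and what any other difference between the plasmids did cannot be told apart. The share of cells that took up a plasmid is not given in the sources used here, and fewer cells with an open region cannot be told apart from a less open region in each cell.

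Most open regions are a few nucleosomes wide and mark a promoter or an enhancer. Very wide ones form where a nucleosome-poor stretch runs on, or where neighbouring open sites lie so close that a broad peak caller joins them. In many tissues wide open or wide H3K4me3-marked promoters are found at highly active housekeeping genes and at genes that set cell identity. Klf4 is a transcription factor that recognises GC-rich DNA and CACCC words through its zinc fingers, and is best known from skin, gut and reprogramming to pluripotency. In beta cells identity rests on another set of factors, among them Pdx1, Nkx6-1, Nkx2-2 and Pax6.

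The base sequences before 7 gene starts under very wide regions show how unlike each other these promoters were. Each line gives the 250 bases before a start from RefSeq on GRCm38.p6, read 5′ to 3′ on the strand of the gene. Capitals mark the GC box GGGCGG and the word CACCC, on either strand. KLF and SP factors can bind DNA with either word. Pdx1 (chr5:147269847-147270096, plus strand), Nkx6-1 (chr5:101664712-101664961, minus strand), Nkx2-2 (chr2:147186403-147186652, minus strand) and Mnx1 (chr5:29478471-29478720, minus strand) are shown as beta cell regulators. Gadd45g (chr13:51846425-51846674, plus strand), a stress-inducible growth arrest gene, and Jun (chr4:95052223-95052472, minus strand), an AP-1 subunit, lie under 2 of the broadest regions. Ctdspl (chr9:118926286-118926535, plus strand), a small phosphatase, lies under a region that was broader with Klf4.
Pdx1: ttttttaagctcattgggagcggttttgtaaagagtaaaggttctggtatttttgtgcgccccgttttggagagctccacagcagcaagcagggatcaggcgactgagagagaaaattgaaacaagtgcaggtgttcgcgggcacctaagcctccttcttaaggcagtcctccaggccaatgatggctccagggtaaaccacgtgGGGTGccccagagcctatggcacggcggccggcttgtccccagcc
Nkx6-1: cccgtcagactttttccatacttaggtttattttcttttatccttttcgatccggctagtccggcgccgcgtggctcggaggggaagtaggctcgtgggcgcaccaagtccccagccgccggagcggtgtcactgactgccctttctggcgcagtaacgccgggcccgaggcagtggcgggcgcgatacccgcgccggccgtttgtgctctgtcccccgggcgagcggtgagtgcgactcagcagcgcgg
Nkx2-2: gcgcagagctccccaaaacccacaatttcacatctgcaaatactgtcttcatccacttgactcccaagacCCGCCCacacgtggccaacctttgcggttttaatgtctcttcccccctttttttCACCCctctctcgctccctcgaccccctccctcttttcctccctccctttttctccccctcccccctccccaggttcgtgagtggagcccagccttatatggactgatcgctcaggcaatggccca
Mnx1: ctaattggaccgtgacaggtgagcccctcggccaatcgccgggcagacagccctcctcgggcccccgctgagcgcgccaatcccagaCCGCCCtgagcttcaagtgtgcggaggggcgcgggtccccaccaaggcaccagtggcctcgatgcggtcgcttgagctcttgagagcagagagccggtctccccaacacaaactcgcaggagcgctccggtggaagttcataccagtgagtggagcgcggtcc
Gadd45g: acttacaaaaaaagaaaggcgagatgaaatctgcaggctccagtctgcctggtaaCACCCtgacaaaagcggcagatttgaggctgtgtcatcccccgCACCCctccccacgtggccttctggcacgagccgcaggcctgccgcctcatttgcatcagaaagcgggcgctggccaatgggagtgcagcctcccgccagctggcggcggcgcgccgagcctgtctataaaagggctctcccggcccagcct
Jun: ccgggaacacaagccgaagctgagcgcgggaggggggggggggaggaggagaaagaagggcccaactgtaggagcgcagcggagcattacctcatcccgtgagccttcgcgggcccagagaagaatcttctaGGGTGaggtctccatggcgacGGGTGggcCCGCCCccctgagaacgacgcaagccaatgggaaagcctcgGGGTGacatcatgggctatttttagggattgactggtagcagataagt
Ctdspl: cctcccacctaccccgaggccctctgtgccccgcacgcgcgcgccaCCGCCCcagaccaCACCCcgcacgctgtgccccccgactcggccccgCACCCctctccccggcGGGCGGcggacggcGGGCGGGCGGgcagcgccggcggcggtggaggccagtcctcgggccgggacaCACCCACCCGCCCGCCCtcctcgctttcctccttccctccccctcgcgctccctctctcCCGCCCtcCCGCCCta

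Pdx1 had 1 CACCC word and no GC box in these 250 bases, and Nkx6-1 had neither although its window held 30 CpG dinucleotides. Nkx2-2 had 1 GC box and 1 CACCC word, and Mnx1 had 1 GC box. Gadd45g had 2 CACCC words and no GC box. Jun had 1 GC box and 3 CACCC words, and Ctdspl had 8 GC boxes and 4 CACCC words at a GC content of 80%. A word in these letters is a description and not a bound site.

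The first question was how wide the same region was with each plasmid. The median width was 2258 bp with the empty vector (quartiles 2109 and 2549 bp, range 2000 to 5736 bp) and 2252 bp for the Klf4 partners (quartiles 2051 and 2631 bp, range 186 to 5746 bp). The medians were thus nearly the same, and the lower ends cannot be compared because the limit was set on the empty vector width alone. The median log2 ratio of Klf4 to empty vector width was -0.0035, with an exact order-statistic interval over regions of -0.0074 to -0.0014, and its quartiles were -0.07 and 0.04. Such intervals, and the 95% Wilson intervals on shares below, cover counting over regions only and say nothing of replicate error.

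Narrower partners numbered 770 (53.8%, interval 51.2 to 56.3%), against 51.9% of all 80737 empty vector peaks with exactly 1 partner. Wider partners numbered 648 (45.3%), against 47.5% of all such pairs, and 14 pairs had equal widths. At a fold of 1.5 or more, 92 partners were narrower (6.42%, interval 5.27 to 7.81%; 12.2% of all pairs) and 15 were wider (1.05%; 14.8% of all pairs). The rule used the empty vector width, so these shares are printed beside the background and nothing is read from their difference. In total the regions covered 3422331 bp and their partners 3338470 bp, which is 2.45% less.

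**Figure D1:**
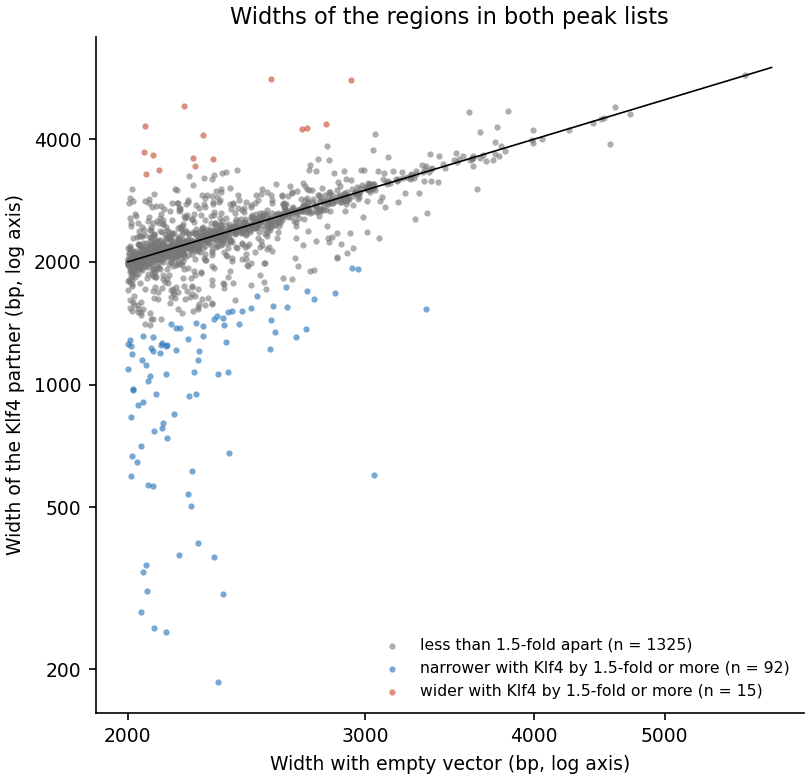
Width of each of the 1432 regions with the empty vector (x axis, bp, log scale) and of its Klf4 partner (y axis, bp, log scale), 1 point per region, with the line of equal widths. Most points lie along the line, 92 lie below it by 1.5-fold or more and 15 above it by as much.

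At a limit of 2000 bp, the median width difference was negative only where the limit was set on the empty vector width. Where the limit of 2000 bp was set on the Klf4 width in place of the empty vector width, 2164 regions were chosen, their median log2 ratio was 0.1437 (interval 0.1150 to 0.1743) and 23.3% were narrower with Klf4. Where it was set on the mean width of pairs that met no other peak, 1475 regions were chosen. Their median was 0.0175 (interval 0.0120 to 0.0230) and 38.7% were narrower. By 1.5-fold or more, 108 of these were wider (7.32%) and 12 narrower (0.814%), against 14.8% and 12.2% of all one-partner pairs. Among the 1140 regions of at least 2000 bp in both lists the median was 0.0074 (interval 0.0034 to 0.0104). No direction of change with Klf4 can be stated for very wide regions from these lists.

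**Figure D2:**
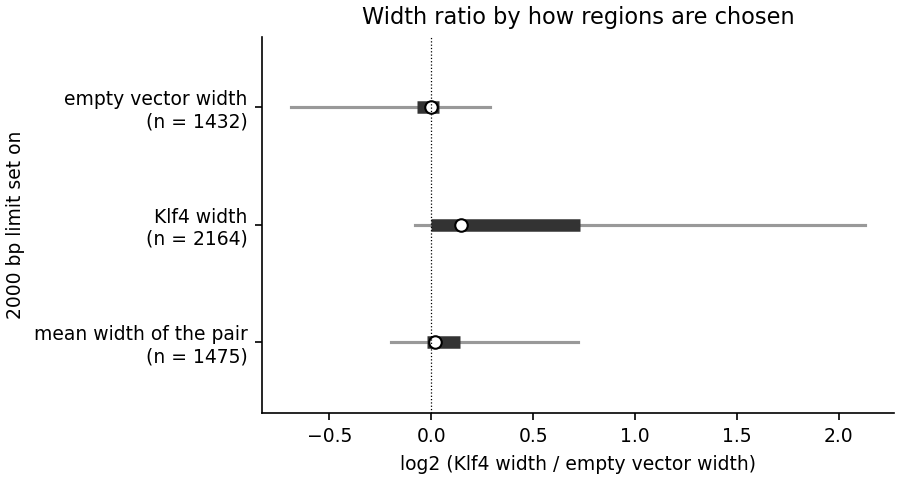
log2 ratio of Klf4 to empty vector width for regions chosen by a 2000 bp limit on the empty vector width, the Klf4 width or the mean width (y axis). Circles are medians, thick bars run from the first to the third quartile and thin lines the 5th to 95th percentiles; the median is -0.0035, 0.1437 and 0.0175 in that order.

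Both edges lay within 100 bp in the lists for 759 regions (53%), which is near the 48.8% of all one-partner pairs. In 516 regions 1 edge differed by more, and in 157 both did. The Jaccard index of a pair, the bases held in common divided by the bases of both together, had a median of 0.952. The partner lay inside the empty vector region in 462 cases (32.3%, and 32.3% of all one-partner pairs). It contained the region in 304 (21.2%, against 22.6%) and was shifted in 666, against 36446 of all 80737 pairs. The shares inside and containing were thus near those of all pairs.

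By width with the empty vector, which the rule used and which is also part of the ratio, the share of partners narrower by 1.5-fold or more is given as a description. It was 7.48% (interval 6.03 to 9.25%) of 1029 regions from 2000 to 2499 bp, 4.42% (2.6 to 7.42%) of 294 from 2500 to 2999 bp and 1.83% (0.505 to 6.44%) of 109 from 3000 bp upwards, with overlapping intervals. Just under the limit, among 3699 one-partner peaks of 1500 to 1999 bp, it was 9.98%. The values next to the limit are a description. Suox, a sulfite oxidase gene (chr10:128672850-128674849), had a region of 2000 bp with a partner of 1983 bp. Naa30, a gene of an N-terminal acetyltransferase (chr14:49171654-49173653), had 2000 and 1793 bp, and a region far from genes on chromosome 16, nearest to Alcam, had 2000 and 1968 bp. Just outside, Enpp3 and Tbcc each had a peak of 1999 bp, with partners of 2060 and 2063 bp, and a peak near Gm6614 had 1999 bp with a partner of 1291 bp.

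Some very wide empty vector peaks met several Klf4 peaks in place of 1 and are not counted here. Of the 1612 empty vector peaks of at least 2000 bp, 1432 (88.8%) had 1 partner, 174 (10.8%) had 2 or more and 6 had none. Among the 174, 169 met exactly 2 Klf4 peaks and 5 met 3 or more. Gaps between neighbouring partners over all 174 ran from 663 to 1594 bp. The largest gap within a split peak had a median of 768 bp. The partners covered a median of 63.5% of a split peak, against 98.5% of a region with 1 partner. Their median −log10 q, the peak caller's strength measure, was 14.2, against 36 for the regions with 1 partner.

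Regions with a higher −log10 q more often had edges close to those of their partner. In the empty vector list the 1432 regions had a median fold enrichment over local background of 4.06, against 4.24 over all peaks of that list, and a median −log10 q of 36, against 8.82. Fold enrichment and q are the authors' values. By width, the median −log10 q was 38.2 for one-partner peaks of 1500 to 1999 bp, 34.7 from 2000 to 2499 bp, 39.4 from 2500 to 2999 bp and 35.5 from 3000 bp upwards. In the Klf4 list the partners had a median fold enrichment of 3.98 (3.92 over that list) and a median −log10 q of 32 (7.61). A −log10 q of at least 50 was reached by 34.4% of the regions and by 13.8% of all empty vector peaks.

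In 4 equal groups of 358 regions ranked by empty vector −log10 q, the weakest group (1.69 to 17.6) held 66 of the 92 regions that were narrower by 1.5-fold or more with Klf4, which is 18.4% of the group. The others held 2.51%, 3.63% and 1.12% from weaker to stronger. Both edges lay within 100 bp in 32.4%, 50%, 60.6% and 69% of the regions, in the same order. The median log2 ratio was -0.06, -0.00, 0.00 and 0.01. Ranked by fold enrichment instead, the order was not kept: 12%, 4.47%, 3.07% and 6.15% were narrower by 1.5-fold or more, and both edges lay within 100 bp in 42.7%, 51.1%, 59.5% and 58.7%. The 92 regions with such narrower partners had a median −log10 q of 6.78 and a median fold enrichment of 3.56, and 22 of them (23.9%) held a gene start. The part of peak strength in the width difference was not tested.

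**Figure D3:**
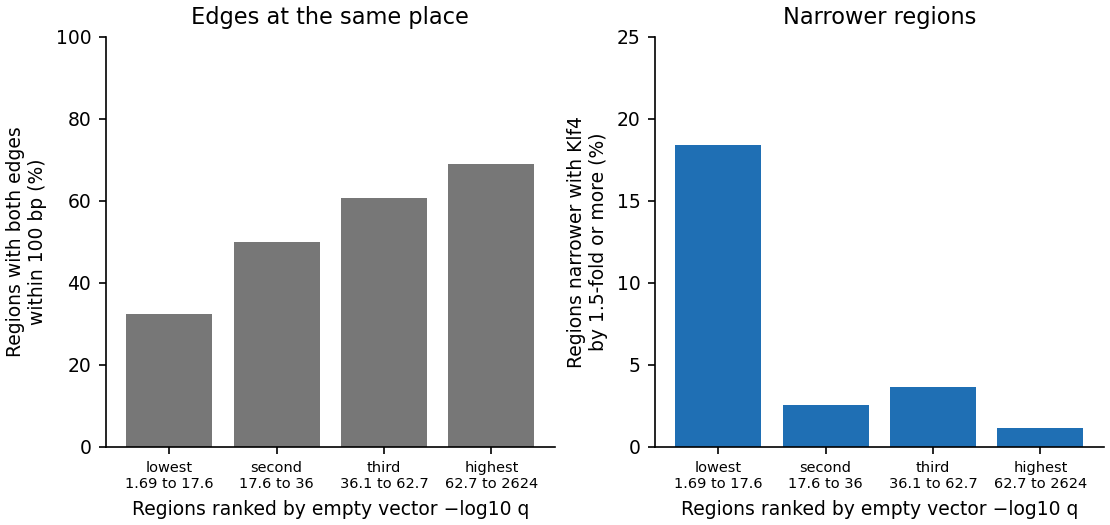
Left, share of regions whose edges both lie within 100 bp in the lists (y axis, %); right, share narrower with Klf4 by 1.5-fold or more (y axis, %), for groups of 358 regions ranked by empty vector −log10 q (x axis). The left share goes from 32.4% to 69% and the right from 18.4% to 1.12% between the weakest and the strongest group.

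The next question was where the very wide regions lie. The window from 250 bases before to 50 bases after the start of a protein-coding gene was touched by 707 of 1432 regions (49.4%, interval 46.8 to 52.0%), by 10.2% of all empty vector peaks and by 11.8% of the other one-partner pairs. Among one-partner peaks of 1500 to 1999 bp the share was 41.7%, and among the wide peaks split with Klf4 it was 32.2% (interval 25.7 to 39.4%). The part of width itself in these differences was not tested. The RefSeq promoter table holds starts for 79.9% of protein-coding genes and none on chromosome 18, where 49 of the regions lie. An end of a protein-coding gene lay within 1 kb of 868 regions (60.6%, against 14.7% of all empty vector peaks).

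By position, 700 regions held the start itself, and 205 held either end of a gene body but no start from the table. The start of such a gene can be in the table elsewhere, as it is for Nkx2-2. A further 263 regions lay inside a gene body and 264 lay outside genes, at a median of 21484 bp from the nearest gene end. A partner narrower by 1.5-fold or more was seen at 3.14% of the regions at a start, at 2.93% of those at another gene end, at 13.3% of those inside a gene body and at 11% of those outside genes. The median −log10 q of these classes was 47.3, 35.1, 17.2 and 20.7, so the classes differed in strength as well. Starts of 2 or more genes lay in 77 regions, and in 69 of these the genes ran in both directions.

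Around a single gene start the regions reached further into the gene than before it. In 513 regions with 1 start, the median reach was 897 bp before the start and 1427 bp after it with the empty vector, and 344 (67.1%, interval 62.9 to 71.0%) reached further after the start. With Klf4 the values were 880 bp, 1418 bp and 68.6% of the 506 partners that held the start. The median shift of the edge with Klf4 was -3 bp before the start and 0 bp after it. In 3228 one-partner peaks of 1000 to 1499 bp with 1 start, the reach was 478 and 714 bp and the share 71.8%.

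The promoters under very wide regions were rich in G and C. Over 980 starts of 784 genes, the median GC content of the 300-base window was 66.3% (quartiles 59 and 73%), against 63.3% under empty vector peaks of 1000 to 1999 bp, 58.7% under narrower ones and 48% under no peak. The ratio of observed to expected CpG was at least 0.6 in 78.9% of the starts, against 81% under peaks of 1000 to 1999 bp and 9.39% under no peak. The GC box GGGCGG stood in 71.3% (interval 68.4 to 74.1%), against 70% under peaks of 1000 to 1999 bp and 46.7% of all 21045 starts. CACCC stood in 69.5%, against 65.1% and 59.8%, and the longer word CCACACCC in 3.57%, against 3.44% and 3.64%. Both strands were searched, and CACCC is part of the longer word.

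Other words were less frequent than over all starts. ATTA, the core of many homeodomain sites, stood in 33.6% of the windows under very wide regions and in 51.7% of all starts. CCAAT stood in 30.6% and 38.5%, the E-box CANNTG in 60.5% and 69%, and the AP-1 word TGANTCA in 3.06% and 7.04%. Under peaks of 1000 to 1999 bp the shares were 36.3%, 36.9%, 59.9% and 3.99%. The share of any word also moves with GC content, whose part in these differences was not tested.

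Among the gene lists, beta cell transcription factors had the highest share of genes with a very wide region, followed by immediate early genes. With a limit of 1500 bp the beta cell factors again had the highest share but immediate early genes were no longer the next, and with 3000 bp immediate early genes had the highest. With 2000 bp, very wide regions lay over or within 1 kb of 8 of 20 beta cell transcription factors, against 6.17% of all 21631 protein-coding genes. Of these factors 15 had a start in the table, and 6 of the 15 had it inside a region, against 4.5% of all genes with a start. The count was 8 of 22 for immediate early and AP-1 genes, 5 of 26 for the KLF and SP family, 4 of 20 for housekeeping genes, 3 of 16 for genes of the unfolded protein response, 3 of 20 for insulin, granule and glucose-sensing genes and 2 of 10 for alpha cell genes. No very wide region lay at any of 39 Hox genes, 15 exocrine pancreas markers or 24 markers of blood, endothelium, fibroblast, muscle and liver. Some peak was present at all 20 beta cell factors, at 12 Hox genes, at 8 exocrine markers and at 15 of the other markers, and at 76.5% of all protein-coding genes. With a limit of 3000 bp the counts were 1 for the beta cell factors, 4 for immediate early genes and 2 for the KLF and SP family, against 0.555% of all protein-coding genes. With 1500 bp they were 14, 10 and 13, and 12 for the insulin, granule and glucose-sensing genes, against 18.9% of all. These counts are descriptions, since a long gene has more room for a region than a short one. At the background share, lists as short as the exocrine and other-cell-type ones would hold few very wide regions, so their counts do not check the cell type label.

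**Figure D4:**
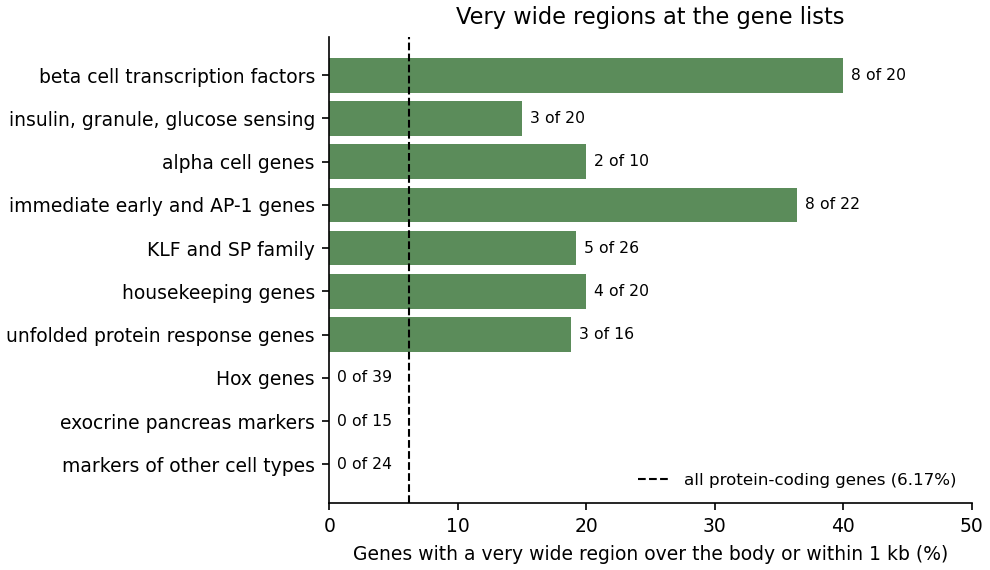
Share of the genes of each list with a very wide region over the gene body or within 1 kb (x axis, %), with the counts beside the bars and the share of all protein-coding genes (6.17%) as a dashed line. The bar for beta cell transcription factors is at 8 of 20 and the lower 3 lists are at 0.

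At the beta cell factors, the widths with each plasmid were within 1.5-fold of each other. Pdx1, which drives pancreas formation and insulin transcription, had a region of 3164 bp, and its Klf4 partner was 3183 bp (chr5:147267327-147270490), with −log10 q of 57.3 and 46.9. Nkx6-1, a homeodomain factor of mature beta cells, had 2597 and 2618 bp (chr5:101663126-101665722). The widths of the pairs differed by 19 and 21 bp.

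Nkx2-2, a homeodomain repressor needed for beta cell fate, had 2 regions. One went from 2666 to 2289 bp (chr2:147185538-147188203), with −log10 q of 6.91 and 5.31. The other went from 2340 to 2360 bp (chr2:147193378-147195717), with −log10 q of 41.5 and 23.8. The widths of the pair thus differed by 377 bp in the first and by 20 bp in the second.

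Pax6, a paired-box factor of endocrine cells, had a region at a start that went from 2075 to 2849 bp (chr2:105668417-105670491) and one in the gene body that went from 2429 to 2674 bp (chr2:105674137-105676565). A further Pax6 peak of 2738 bp with the empty vector was split into Klf4 peaks of 1545 and 496 bp and is not among the 1432. Foxo1, a forkhead factor regulated by insulin signalling, went from 2602 to 2920 bp (chr3:52267656-52270257). Mnx1, a homeodomain factor, went from 2188 to 2101 bp (chr5:29477370-29479557), and Rfx6 from 2305 to 2205 bp (chr10:51676258-51678562). Of the 10 regions at genes of this list, 7 were wider and 3 narrower with Klf4, none by 1.5-fold, against 45.3% wider and 53.8% narrower over all 1432, and their median log2 ratio was 0.01, against -0.00 over all 1432.

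Among genes of insulin secretion, 3 had a very wide region over them or within 1 kb. Kcnj11, the pore subunit of the ATP-sensitive potassium channel, had a region of 2535 bp and a partner of 2455 bp (chr7:46098523-46101057). Slc30a8, the zinc transporter of insulin granules, had 2324 and 2391 bp inside its body (chr15:52297356-52299679). Iapp, which encodes islet amyloid polypeptide, had one of 2245 and 2194 bp within 1 kb, outside its own body and inside that of Slco1a5 (chr6:142304227-142306471). The widest empty vector peak was 1193 bp at Ins1 and 1660 bp at Ins2, the insulin genes, and 722 bp at Slc2a2, the glucose transporter. Those 3 genes thus had open regions under the limit. Pcsk2, of the same list, had a peak of 2052 bp that was split with Klf4 into 409 and 213 bp and is not counted here.

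Immediate early genes, which are switched on within minutes of a stimulus, held some of the broadest regions. Ier2 went from 3996 to 4218 bp (chr8:84661576-84665571), Jun from 3600 to 3590 bp (chr4:95050041-95053640), Nr4a2, an orphan nuclear receptor, from 3422 to 3475 bp (chr2:57114382-57117803) and Egr2, a zinc finger factor, from 3038 to 3759 bp (chr10:67535735-67538772). Junb, an AP-1 subunit, went from 2803 to 4359 bp (chr8:84976173-84978975), a ratio of 1.56, and was the 1 region of all lists past 1.5-fold. Its Klf4 partner also touched a second empty vector peak. Jund had 2516 and 2589 bp, Btg2, an antiproliferative gene, 2522 and 2404 bp, and Egr1 2598 and 2584 bp. Of the 8, 5 were wider and 3 narrower with Klf4, against 45.3% wider and 53.8% narrower over all 1432, with a median log2 ratio of 0.03. Fos had a peak of 2760 bp that was split with Klf4 into 852 and 1162 bp, and Nr4a3 one of 2765 bp split into 875 and 1195 bp, so neither is counted here.

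In the KLF and SP family itself, Klf10 had the widest region, with 3518 bp and 3575 bp (chr15:38299028-38302545). Klf13 went from 3335 to 2642 bp (chr7:63936406-63939740), Klf16 from 2532 to 2623 bp, Klf12 from 2397 to 2445 bp and Sp3, a GC box factor, from 2124 to 2473 bp. The widest empty vector peak at Klf4 was 1968 bp, just under the limit.

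In the housekeeping list the widest region was at Gapdh, a glycolytic enzyme gene, with 2779 and 2660 bp (chr6:125164733-125167511). Tuba1b, an alpha tubulin gene, had 2555 and 2524 bp (chr15:98933124-98935678), Actg1, cytoplasmic actin, 2617 and 2754 bp and Hsp90ab1, a chaperone, 2286 and 2273 bp. In the unfolded protein response list the widest was within 1 kb of Hspa5, the main chaperone of the endoplasmic reticulum, with 2675 and 1949 bp (chr2:34777281-34779955), a weak region with −log10 q of 1.91 that lies in the body of the neighbouring gene Rabepk. Ddit3, a stress-induced bZIP factor, had 2422 and 2387 bp and Atf6, a stress sensor, 2042 bp in both lists. Etv1, the widest of the alpha cell list, had 2426 and 2443 bp (chr12:38778334-38780759).

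The 12 widest regions ranged from 3988 to 5736 bp. The first, of 5736 bp with a partner of 5746 bp (chr17:39843039-39848774), covers Rn18s-rs5, a pseudogene named for 18S ribosomal RNA, and the lncRNA AY036118, and its nearest protein-coding gene is Esp38. It had a −log10 q of 695 but a fold enrichment of 2.25, and ranked 32 by q in the empty vector list. A region of 4509 and 4512 bp (chr1:24611615-24616123) covers the pseudogenes Gm10222 and Gm10925, nearest to Col19a1, and had the highest −log10 q of all 1432, 2624 with the empty vector and 2209 with Klf4. The first is named for ribosomal RNA, whose genes lie in many copies, and the second is known as a nuclear copy of mitochondrial DNA. How reads were placed between such copies was not tested.

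At protein-coding genes, the widest was at Gadd45g with 4715 and 4623 bp (chr13:51844877-51849591). Efna5, an ephrin ligand, had 4594 and 4799 bp (chr17:62879837-62884430), and Arid2, a subunit of a chromatin remodelling complex, 4551 and 3895 bp (chr15:96284048-96288598). Ubtf, a transcription factor of RNA polymerase I, had 4487 bp in both lists (chr11:102316450-102320936) with both edges shifted by 16 bp. Sema6a, a semaphorin, had 4426 and 4377 bp, Slc38a4, an amino acid transporter, 4243 and 4215 bp (chr15:97016588-97020830), and Dbp, a circadian bZIP factor, 4054 and 4011 bp (chr7:45703884-45707937). Ier2 came next, followed by 2 regions outside genes, of 3991 and 3916 bp near Trappc6b and of 3988 and 3979 bp near 9230019H11Rik. The ratio of Klf4 to empty vector width was 0.856 at Arid2 and between 0.98 and 1.06 in the other 11.

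The 5 regions with the lowest ratio of Klf4 to empty vector width were weak in the empty vector list. Zfp207, a spindle assembly gene, held one in its body of 2332 bp whose partner was 186 bp (chr11:80406030-80408361), with −log10 q of 1.69 and 1.59. Lrrc26, an auxiliary subunit of potassium channels, had 2134 and 247 bp (chr2:25289101-25291234). Gpr176, an orphan receptor, had 2092 and 253 bp, Trip4, a transcriptional coactivator, 2352 and 306 bp and Igsf21, a synaptic adhesion protein, 2047 and 276 bp. Their −log10 q with the empty vector ran from 1.69 to 6.15, against a median of 36 over all regions. The Klf4 partners at Lrrc26 and Gpr176 had −log10 q of 15.7 and 11.9, above the median of 7.61 of the Klf4 list, and those at Trip4 and Igsf21 had 2.24 and 1.19.

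The 5 with the highest ratio each had a Klf4 partner that also touched a second empty vector peak. Rcor2, a corepressor, went from 2552 to 5611 bp (chr19:7267268-7269819), a ratio of 2.2, with −log10 q of 40.1 and 17.6. Trim8, a ubiquitin ligase, went from 2203 to 4818 bp (chr19:46501998-46504200), Ctdspl from 2060 to 4319 bp (chr9:118925338-118927397), Sik3, a salt-inducible kinase, from 2929 to 5585 bp (chr9:46132768-46135696), and a region 3 bp from Kmt2a, a histone methyltransferase gene, from 2056 to 3719 bp (chr9:44881355-44883410). Of the 15 regions wider by 1.5-fold, 8 had such a partner, against 10 of all 1432.

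The regions were spread over all chromosomes at 14.3 per 1000 empty vector peaks. The highest rates were 21.8 on chromosome 14 (interval 17.8 to 26.7) and 19.8 on chromosome 11 (16.8 to 23.4), and the lowest was 10.5 on chromosome 6 (7.95 to 13.8). The median distance to the nearest other region was 290 kb.

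**Figure D5:**
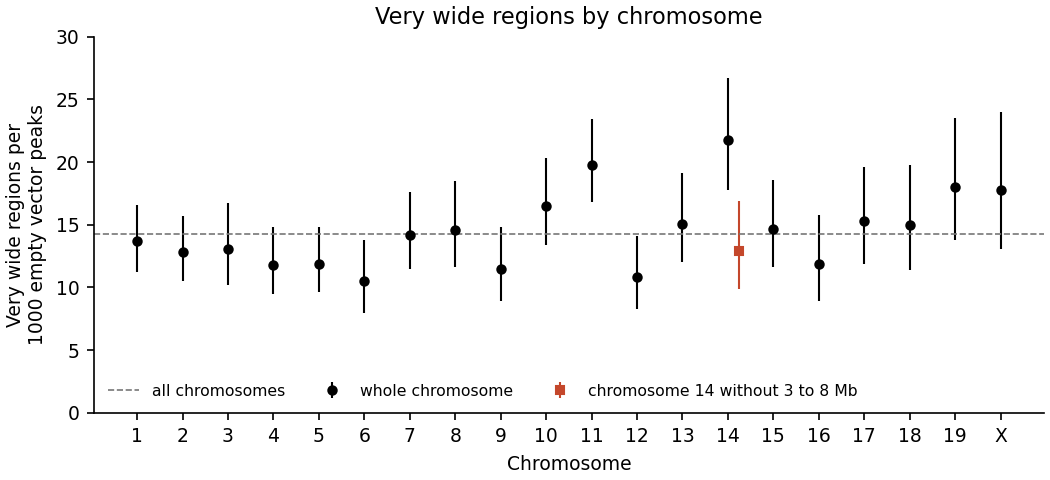
Very wide regions per 1000 empty vector peaks (y axis) by chromosome (x axis), with 95% Wilson intervals over peaks; the square is chromosome 14 without its first stretch from 3 to 8 Mb and the dashed line is the rate over all chromosomes, 14.3. Chromosome 14 is at 21.8 as a whole and at 12.9 without that stretch.

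The rate on chromosome 14 came from one run of regions between 3 and 8 Mb, which was noticed after the data were seen. There 38 of 103 empty vector peaks were among the 1432, which is 369 per 1000, and the rest of the chromosome had 12.9 per 1000. The 38 were alike in width, from 2023 to 2378 bp with the empty vector (median 2127 bp, SD 76.9 bp over regions) and from 1718 to 2302 bp with Klf4 (median 2076 bp). Of these 34 (89.5%) were narrower with Klf4, against 52.8% of the other 1394, and the median log2 ratio over all 38 was -0.03. They followed each other at a median gap of 87.8 kb.

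Gene starts lay in 25 of the 38, and each had a close copy among the others. For each of the 25, the central 150 bases of a start's window matched the window in another of them at 94.7% identity or more (median 97.3%). Not all pairs were this close. In the group of 26 regions and 27 genes that links these starts by matches of at least 80%, and also holds Dgkh outside the run, identity over all pairs ran from 51.3 to 100% with a median of 61.3%. The bases before 3 starts are given in the same format as above, for the narrowest region, a middle one and the widest of those with 1 start. They are Gm10406 (chr14:7027450-7027699, minus strand), Gm3194 (chr14:5460411-5460660, minus strand) and Gm3558 (chr14:7568567-7568816, minus strand).
Gm10406: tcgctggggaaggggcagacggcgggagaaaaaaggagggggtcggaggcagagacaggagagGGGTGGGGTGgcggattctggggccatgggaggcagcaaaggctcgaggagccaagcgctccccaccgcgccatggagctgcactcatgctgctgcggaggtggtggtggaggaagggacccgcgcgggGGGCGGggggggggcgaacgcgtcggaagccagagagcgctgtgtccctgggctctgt
Gm3194: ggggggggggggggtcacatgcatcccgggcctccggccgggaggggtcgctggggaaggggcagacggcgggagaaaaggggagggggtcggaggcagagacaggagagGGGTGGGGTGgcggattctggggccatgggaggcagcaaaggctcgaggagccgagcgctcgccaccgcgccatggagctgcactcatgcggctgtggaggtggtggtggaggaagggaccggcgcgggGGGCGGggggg
Gm3558: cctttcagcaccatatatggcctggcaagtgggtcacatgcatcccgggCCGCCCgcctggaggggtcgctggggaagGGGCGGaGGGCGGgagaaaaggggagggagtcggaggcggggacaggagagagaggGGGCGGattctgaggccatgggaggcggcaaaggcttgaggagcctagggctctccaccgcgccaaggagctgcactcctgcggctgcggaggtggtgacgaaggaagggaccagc

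Their regions were 2038 and 2032 bp at Gm10406, 2145 and 2115 bp at Gm3194 and 2378 and 2302 bp at Gm3558, with the empty vector and Klf4 in that order. The central bases of the Gm10406 window were 96% identical to the Gm3194 window and 86.7% to the Gm3558 window, and the starts are offset along the shared sequence. How reads were placed between such copies was not tested, nor were the 13 regions without a start compared in sequence, so the 38 may not be independent of each other. Of the 700 regions with a start, 32 (4.57%) fell into 8 groups in which each had at least 1 other at 80% identity or more of this kind. Pairs of histone genes were among them, such as H3c14 and H3c15 on chromosome 3, whose windows were 100% identical.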

How the data were processed

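ATAC-seq was done on 8 MIN6 libraries, 4 for each plasmid. The submitters' processing notes name FastQC, Bowtie2, MACS2, DiffBind and the build mm10. Versions, read filters, duplicate handling, the transposase shift and whether libraries were merged before or after peak calling are not given in the sources used here. An mRNA-seq library kit in the labels was not resolved.

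The authors deposited 1 broad peak list per plasmid. They deposited for each peak a fold enrichment (a ratio over local background) and a −log10 q-value; a −log10 p-value and a display score of the authors were not used. Broad calling can join open stretches that lie close together.

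Peaks were paired with Python 3.11.15, pandas 2.3.3, numpy 2.4.6 and scipy 1.17.1, and intervals are at 95%. On simulated lists of 20000 peaks, all 5 simulated classes of partner number and width change were recovered. The simulated partners had set widths without noise, and none touched a second peak. This checks the code only and not the pairing in lists like these. Genes and 250 bases before to 50 bases after each start came from RefSeq on GRCm38.p6, the assembly behind mm10. A region is named by the protein-coding gene whose start it holds, otherwise by the gene body it lies in, otherwise by the nearest gene end. Members and gene lists were chosen with earlier results of these data known. Named are the 12 widest, the 5 with the lowest and 5 with the highest width ratio, those at beta cell factor and insulin list genes, the widest in each other list and 3 on each side of the limit. Further list genes, multi-copy regions and list peaks split with Klf4 were named after their values were seen. The values of 1 gene of the beta cell list are not reported here.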

Additional observations from a re-analysis of the deposited data

Results flagged for a closer look

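Very wide peaks also lay on sequences left out of the comparisons. On chromosome Y and the unplaced scaffolds, 13 of 215 empty vector peaks (6.05%) were at least 2000 bp wide, against 1.61% on chromosomes 1 to 19 and X. Of the 13, 10 had exactly 1 Klf4 partner, 2 lay on Y, and the widest measured 9334 bp. They are listed because they lie outside the main measurement, and there is no control sample to set them against.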

How the results depend on the processing

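Of 86 values recomputed under alternatives, 41 stayed close to the reported one, 42 moved and 3 changed sign. The median log2 width ratio of -0.003 became 0.004 with a limit of 3000 bp, 0.144 when regions were chosen on the Klf4 width and 0.017 when chosen on the mean width. The number of regions, 1432, was 5131 at a limit of 1500 bp, 109 at 3000 bp, 2164 when chosen on the Klf4 width, 399 with both lists held to a −log10 q of at least 50 and 2337 with peaks within 1000 bp merged. The percent narrower with Klf4, 53.8, was 44 at 3000 bp, 23.3 when chosen on the Klf4 width, 38.7 on the mean width and 51.1 at a −log10 q of 50. The percent narrower by 1.5-fold, 6.42, was 8.98 at 1500 bp, 1.83 at 3000 bp, 3.18 when Klf4 peaks had to cover 50% of the region, 0.277 and 0.814 when chosen on the Klf4 and the mean width, and 11.9 after merging. The percent at a gene start, 49.4, was 43.8 at 1500 bp, 56.9 at 3000 bp, 42.6 when chosen on the Klf4 width, 68.7 at a −log10 q of 50, 40.6 after merging, 60.6 for a gene start or end within 1 kb and 54.6 with genes of every biotype. List genes with a region, 33, were 66 at 1500 bp, 7 at 3000 bp and 40 within 10 kb of the gene body. The list of other cell types gained 1 gene at 1500 bp or within 10 kb. The housekeeping list went from 4 genes to 8 at 1500 bp and to 7 within 10 kb. At 3000 bp the GC content was 63.2%, GGGCGG stood in 67%, CACCC in 77% and CCACACCC in 8% (interval 4.11 to 15%) of 100 starts, the last against 3.57%. Limits on width or q leave other regions by construction, and beyond that the cause was not tested. Without the run on chromosome 14, an alternative chosen after seeing the data, 1394 regions remained and the values above stayed close (52.8% narrower, 48.9% at a start). No paired analysis was possible because each plasmid has 1 merged list, and for the same reason no replicate could be left out. Depth is unknown, so how far it sets widths was not tested.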

Other observations

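Some microRNA genes lay under very wide regions. Of 1005 hairpins in the RefSeq table, 12 (1.19%) overlapped one, and 157 (15.6%) overlapped an empty vector peak of any width. They included Mir7687, in the Gse1 region of 3091 bp (3195 bp with Klf4), and Mir5130, in the Kctd12 region of 2700 and 2761 bp. Mir5617 lay in the Syn1 region, which went from 2293 to 1630 bp. Syn1 encodes a synaptic vesicle protein.

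Some genes held several very wide regions, 39 of them at least 2. Gse1, which codes for a chromatin-associated protein, had 5, of 2012 to 3091 bp with the empty vector, over a gene of 352883 bp. Bcor, a corepressor, Slc43a2, an amino acid transporter, and Ttc28 had 3 each. On chromosome 15 between 97 and 100 Mb, chosen after seeing the data because Slc38a4, Tuba1a, Tuba1b, Tuba1c and Cox14 lie there, 11 of 443 empty vector peaks were very wide (24.8 per 1000, interval 13.9 to 43.9), against 13.6 per 1000 on the rest of that chromosome (10.6 to 17.6). The intervals overlap. The region at Tuba1a had 3109 and 3136 bp and that at Cox14 2643 and 2650 bp, with −log10 q of 373 and 376 with the empty vector.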
